A study of Rattus norvegicus with 6 samples.

Results

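Mitochondrial fatty acid oxidation shortens fatty acids by 2 carbons a turn and supplies much of the energy of the renal proximal tubule. Carnitine palmitoyltransferases bring long-chain fatty acids into the mitochondrion, acyl-CoA dehydrogenases of different chain-length preference start each turn, and the trifunctional protein carries out the later steps for long chains. A thiolase releases acetyl-CoA, and auxiliary enzymes make the double bonds of unsaturated fatty acids fit the cycle. The enzymes described here are Cpt1a, Cpt2, Acadvl, Acadl, Acadm, Hadha, Hadhb, Eci1, Decr1 and Acaa2. They were chosen by name as enzymes of this pathway, with probes taken by RefSeq transcript, 10 of the 15645 gene symbols to which probes were matched, and 14 probes measured them.

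RNA of rat renal cortex was measured on Agilent 1-colour microarrays, with 1 array for each of 6 male Sprague-Dawley rats, which were 5 weeks old when obtained. The chlorothalonil group was 3 rats dosed for 4 weeks with this fungicide, at 500 mg/kg/day, and the control group was 3 rats given corn oil for the same 4 weeks. The title, treatment and dose labels of chlorothalonil replicate 3 give chlorothalonil, but its source name states ethylenediamine dihydrochloride. It was kept in its group, and values without it are given where they bear on a result. All chlorothalonil arrays lay on 1 slide and all corn oil arrays on another, scanned apart, and so the treatment cannot be told apart from the slide here.

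Between 38234 and 41711 of 61537 probes per array were well above background, and no probe was saturated. Levels below are log2 of the processed signal minus the 75th percentile of the same array. Fold changes are chlorothalonil minus corn oil on that log2 scale, and SE is the standard error from limma, whose Benjamini-Hochberg adjusted p of 0.05 over 31098 features was the threshold. Precision is limited by having 3 arrays a group. All 17 listed markers of the proximal tubule and all 6 of podocytes, cell types of the renal cortex, were measured. On all 6 arrays each of the 14 enzyme probes was well above background, with no outlier spot, so each of the 10 enzymes passed the filter on dim probes through both groups.

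Of the 10 enzymes, Acadm rose with chlorothalonil, Eci1 and Hadha fell, and 7 did not pass. Acadm, the medium-chain acyl-CoA dehydrogenase, was 1.33-fold its corn oil signal, Eci1 0.639-fold and Hadha 0.751-fold. Across features with a gene symbol 2.14% were called, 1.44% higher and 0.696% lower, and across all features 3.15%, with 1.29% higher and 1.87% lower. Among features with a symbol that were at least as bright as the dimmest of these enzymes, 2.97% were called. An unadjusted p under 0.05 was reached by 6 of the 10 enzymes, by 18.5% of features with a symbol and by 19.6% of all. The median log2 fold change of the 10 enzymes was −0.19, beside 0.02 for the 11926 features with a gene symbol and 0.00414 for all 31098. Of the 10, 9 had a log2 fold change below 0, as did 44.3% of features with a gene symbol and 39.5% of those as bright. For 6 of the 10 all chlorothalonil arrays lay below all corn oil arrays, a pattern of 13.9% of all features, of 11.4% of those with a gene symbol and of 11.8% of the 2596 as bright. Acadm lay above corn oil without overlap, as did 16.3% of features with a symbol. In either direction 27.8% of features with a symbol and 27.6% of all did not overlap.

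Spike-in RNA added to the samples, which matches no rat gene, moved in the same direction. Of 8 spike-ins well above background on all arrays, 4 were lower on all chlorothalonil arrays than on all corn oil arrays, and the differences ran from −0.32 to 0.05 with a median of −0.13. The part of slide or labelling in the small negative values was not tested. When each array was moved by its mean spike-in signal, an alternative added once the data had been seen, the median of all features shifted to 0.15. On that scale 5 of the 10 enzymes were below 0, 3 lay below corn oil without overlap, beside 2.49% of features with a gene symbol, and Acadm was the one call.

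**Figure D1:**
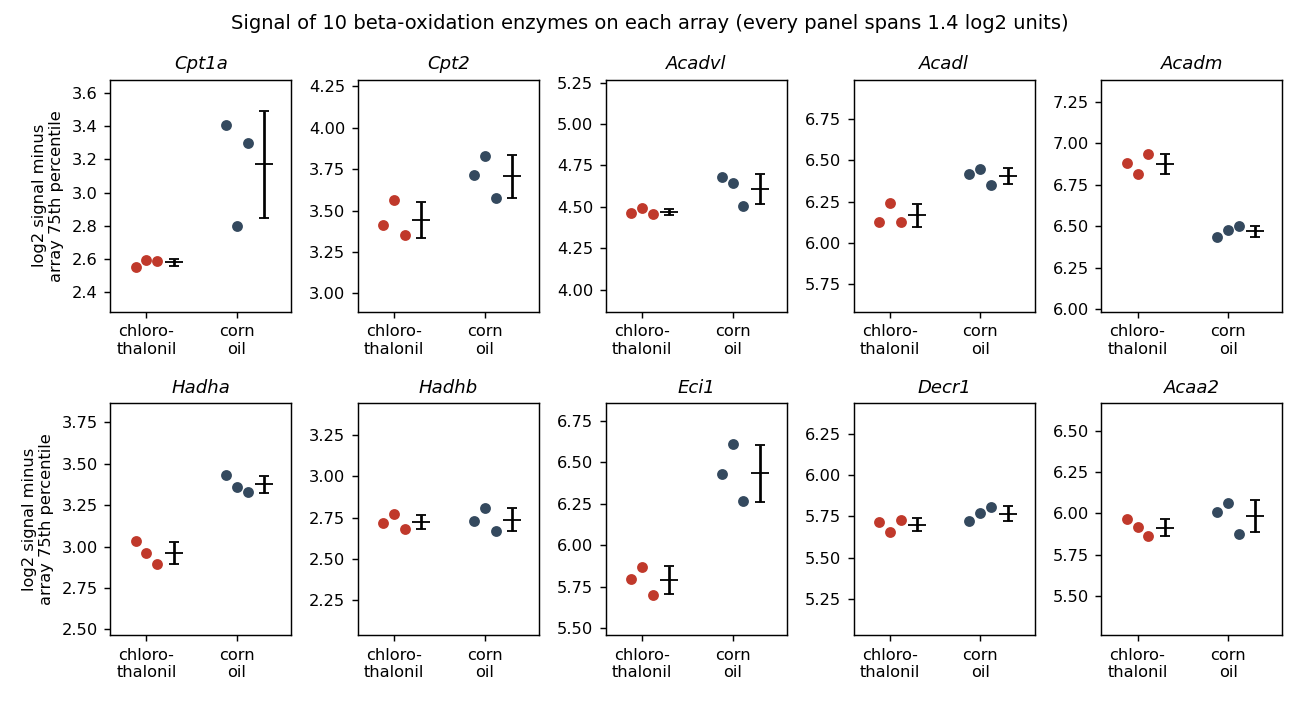
Log2 signal of the 10 enzymes minus the 75th percentile of the array, 1 point per array, chlorothalonil (red) left of corn oil (blue), with the mean and SD of 3 arrays as black bars. The 3 chlorothalonil points of Acadm lie above its corn oil points, those of Cpt1a, Cpt2, Acadvl, Acadl, Hadha and Eci1 lie below, and those of Hadhb, Decr1 and Acaa2 overlap.

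Windows of 300 bases around the start of transcription are shown for the 3 called enzymes, because these differ in direction and because Hadha stands beside a partner gene with a different value. The sequences are from RefSeq on build GRCr8 and are printed 5′ to 3′ on the gene's strand. Such a window was matched for 7 of the 10 enzymes. Capitals mark matches on either strand to 3 motifs, which are AGGTCA, the nuclear receptor half-site, CCAAT, and GGGCGG, the GC box. The Acadm window is chr2:245542815-245543114, minus strand. The Eci1 window is chr10:13961000-13961299, plus strand. The Hadha window is chr6:31907551-31907850, plus strand.
Acadm: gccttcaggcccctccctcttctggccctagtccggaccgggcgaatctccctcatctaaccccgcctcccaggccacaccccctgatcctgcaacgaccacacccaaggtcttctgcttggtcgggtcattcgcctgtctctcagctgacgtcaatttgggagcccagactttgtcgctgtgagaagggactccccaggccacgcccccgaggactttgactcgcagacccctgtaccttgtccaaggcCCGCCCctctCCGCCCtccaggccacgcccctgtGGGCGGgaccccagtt
Eci1: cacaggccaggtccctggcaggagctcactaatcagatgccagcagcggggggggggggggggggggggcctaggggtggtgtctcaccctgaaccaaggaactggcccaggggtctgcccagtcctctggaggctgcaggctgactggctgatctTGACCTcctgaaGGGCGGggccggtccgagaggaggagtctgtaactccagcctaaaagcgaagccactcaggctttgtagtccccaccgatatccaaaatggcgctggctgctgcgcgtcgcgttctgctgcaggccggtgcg
Hadha: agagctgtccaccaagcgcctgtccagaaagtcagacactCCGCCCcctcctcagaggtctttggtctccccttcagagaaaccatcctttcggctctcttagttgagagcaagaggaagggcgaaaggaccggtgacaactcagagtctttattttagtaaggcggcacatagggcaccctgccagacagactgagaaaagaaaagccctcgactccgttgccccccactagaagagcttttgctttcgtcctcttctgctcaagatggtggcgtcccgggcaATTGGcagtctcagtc
Of 33469 windows of this length, 16.2% hold AGGTCA, 37.5% hold CCAAT and 33.1% hold GGGCGG. The Acadm window holds 3 matches to GGGCGG, at 0, 10 and 34 bases past the start of transcription. The Eci1 window holds 1 match to AGGTCA and 1 to GGGCGG, and the Hadha window 1 to CCAAT, 34 bases past the start, and 1 to GGGCGG. Windows of enzymes that were not called also hold matches. That of Acadvl has 2 to AGGTCA, that of Hadhb 1 to AGGTCA and 4 to GGGCGG, and that of Cpt2 3 to GGGCGG. The Cpt1a window has no match. A longer motif searched, TCAAGGTCA, which contains AGGTCA, matched 0 of the 7 windows and 0.433% of all. Hadha and Hadhb start head to head, 301 bases apart, so that 200 bases of the Hadha window, chr6:31907551-31907750, are also in the window of Hadhb on the other strand. These matches are a description of letters, not of binding.

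Neither carnitine palmitoyltransferase among the 10 enzymes passed. Cpt1a, the liver-type carnitine palmitoyltransferase that controls entry of long-chain fatty acids, had 2.55, 2.60 and 2.59 with chlorothalonil and 3.41, 2.80 and 3.30 with corn oil. All chlorothalonil arrays lay within a narrow band below the corn oil arrays, of which replicate 2 was the lowest. The log2 fold change was −0.59 ± 0.16 (SE) with a limma adjusted p of 0.134. Without corn oil replicate 2, the control array nearest the treated ones, it was −0.78 and passed, with an adjusted p of 0.0369. Cpt1a passed in none of the other alternatives among the 18 run. With any other single array left out, its limma adjusted p was 0.234 to 0.285. Cpt2, the inner membrane carnitine palmitoyltransferase, had 3.41, 3.56 and 3.35 with chlorothalonil and 3.72, 3.83 and 3.57 with corn oil. The groups of Cpt2 nearly met, and its value of −0.27 ± 0.10 had an adjusted p of 0.215, with a 95% interval from −0.50 to −0.03.

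The acyl-CoA dehydrogenases differed among themselves. Acadvl, which acts on very long chains, had 4.46, 4.49 and 4.46 with chlorothalonil and 4.68, 4.64 and 4.51 with corn oil, and its value of −0.14 ± 0.07 (SE) missed the threshold in limma (adjusted p 0.347). Its second probe was at −0.22. Acadl, the long-chain enzyme, had 6.13, 6.24 and 6.12 with chlorothalonil and 6.42, 6.45 and 6.35 with corn oil. Both genes lay lower on all treated arrays, and Acadl at −0.24 ± 0.07 had an adjusted p of 0.137. Under spike-in scaling Acadvl turned to 0.011.

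Acadm went the other way. Its levels were 6.88, 6.81 and 6.93 with chlorothalonil and 6.43, 6.47 and 6.50 with corn oil. In processed signal before any scaling between arrays these were 105080, 104489 and 102700 units with chlorothalonil and 77556, 85144 and 84038 units with corn oil, so the groups stood apart before scaling too. Acadm averaged 6.88 ± 0.06 in the chlorothalonil group and 6.47 ± 0.03 in the corn oil group (SD, n = 3 each). Acadm rose by 0.41 ± 0.06 (SE), with a limma adjusted p of 0.0367 and a 95% interval from 0.25 to 0.56. It has 1 probe on the array. The call was lost with any single array left out, at adjusted p from 0.0971 to 0.128, while the fold change stayed between 0.38 and 0.44. It was also lost with quantile normalization, at 0.34 and an adjusted p of 0.0702, and with no filter on dim probes, at 0.119.

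Both subunits of the trifunctional protein are encoded side by side, and their signals differed. Hadha, the alpha subunit with the hydratase and long-chain hydroxyacyl-CoA dehydrogenase activities, had 3.03, 2.96 and 2.89 with chlorothalonil and 3.43, 3.36 and 3.33 with corn oil. All treated arrays lay below all control arrays, and the distance was several times the SD of either group. Hadha fell by 0.41 ± 0.07 (SE) on the log2 scale, with a limma adjusted p of 0.0404 and a 95% interval from −0.58 to −0.25. Its 2 other probes were also lower. The dimmer of them had −2.02, −1.95 and −1.85 with chlorothalonil and −1.34, −1.48 and −1.50 with corn oil, a log2 fold change of −0.50 with an adjusted p of 0.0404 among all probes in limma. The other probe, at −0.27, had an adjusted p of 0.133. All 3 probes of Hadha thus lay lower on every chlorothalonil array, where 13.0% of kept probes did so and 2.67% of kept probes were called.

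Hadhb, the beta subunit with the thiolase activity, had 2.72, 2.77 and 2.68 with chlorothalonil and 2.73, 2.81 and 2.67 with corn oil. The groups of Hadhb overlapped throughout. Its log2 fold change was −0.01 ± 0.07 (SE), with a 95% interval from −0.18 to 0.15 and a limma adjusted p of 0.939. Its sign turned with 5 alternatives, among them the median and spike-in scalings. Within each array the log ratio of Hadha to Hadhb was 0.31, 0.19 and 0.21 with chlorothalonil and 0.70, 0.55 and 0.66 with corn oil. That ratio does not depend on the scaling, and it was lower by 0.40 with chlorothalonil. A two-sided exact permutation test over the 6 arrays gave p = 0.1, the smallest that 3 arrays against 3 allow.

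**Figure D2:**
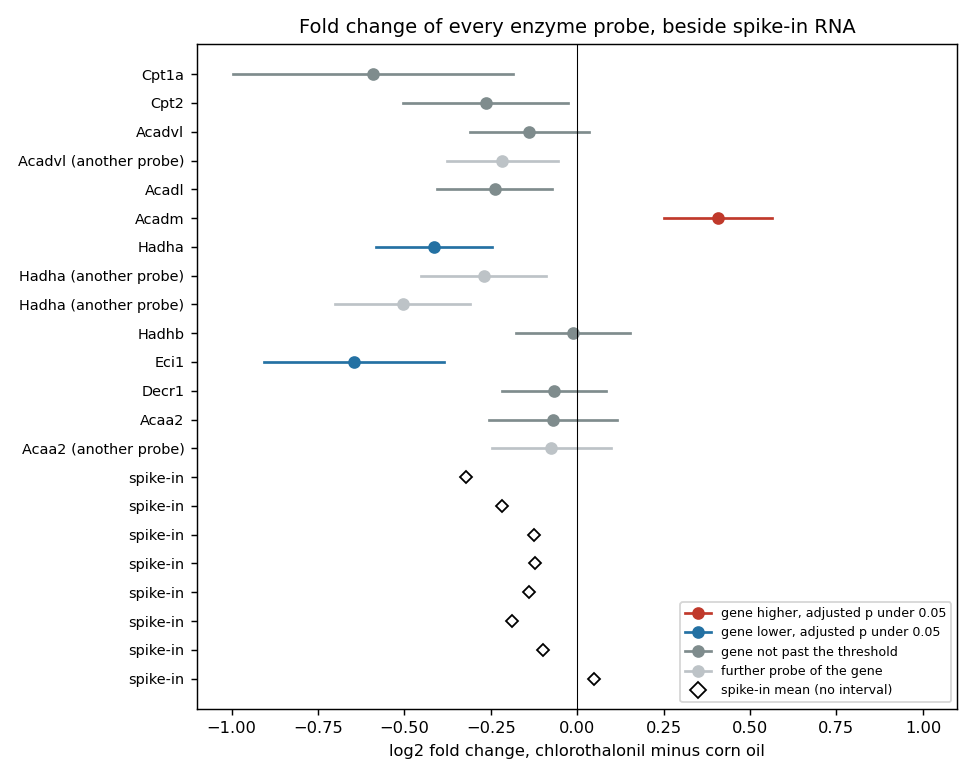
Log2 fold change, chlorothalonil minus corn oil, with its 95% interval, for each of the 14 probes, and below them the difference of 8 spike-in RNAs with no interval, ordered from the dimmest. Acadm lies above 0, the 3 probes of Hadha lie below 0, and 7 of the 8 spike-ins lie below 0.

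The auxiliary enzymes also parted. Eci1, the enoyl-CoA delta isomerase that moves double bonds so that unsaturated chains can be degraded, had 5.80, 5.87 and 5.70 with chlorothalonil and 6.43, 6.61 and 6.26 with corn oil. Its unscaled signals were 49686, 54195 and 43713 units with chlorothalonil and 77463, 93515 and 71410 units with corn oil. No treated array reached a control array on either scale. Eci1 fell by 0.65 ± 0.11 (SE) on the log2 scale, with a limma adjusted p of 0.0402 and a 95% interval from −0.91 to −0.38. Decr1, the 2,4-dienoyl-CoA reductase of the same branch, had 5.71, 5.66 and 5.73 with chlorothalonil and 5.72, 5.77 and 5.81 with corn oil. Its groups overlapped, and at −0.07 ± 0.06 it had an adjusted p of 0.602 and a 95% interval from −0.22 to 0.08.

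The calls of Hadha and Eci1 depended on the scaling and on every array. Scaling to the array median left Hadha at −0.36 with an adjusted p of 0.0843 and Eci1 at −0.59 with 0.0625. Spike-in scaling left them at −0.26 with 0.168 and −0.50 with 0.12. With any single array left out, the adjusted p in limma was 0.102 to 0.135 for Hadha and 0.0622 to 0.129 for Eci1. The fold changes then ran from −0.45 to −0.38 and from −0.73 to −0.56. Without chlorothalonil replicate 3, whose labels disagree, limma called 0 of the 10 enzymes, while 5 reached an unadjusted p under 0.05. Over all 31742 features of that fit, 194 or 0.611% were called, and 5281 had an unadjusted p under 0.05. In that fit Acadm was at 0.38, Hadha at −0.38 and Eci1 at −0.60.

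Acaa2, the mitochondrial 3-ketoacyl-CoA thiolase of the last step, had 5.96, 5.92 and 5.86 with chlorothalonil and 6.01, 6.06 and 5.88 with corn oil. The groups overlapped. At −0.07 ± 0.08 (SE) its limma adjusted p was 0.661, with a 95% interval from −0.25 to 0.11, and its second probe was at −0.08.

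Enzymes of neighbouring roles were set against each other within arrays, as 5 log ratios tested by exact permutation with adjustment over the 5. Acadm against Acadl had a log ratio of 0.75, 0.57 and 0.81 with chlorothalonil and 0.02, 0.03 and 0.15 with corn oil, a change of 0.65. Acadm against Acadvl changed by 0.55, and Eci1 against Decr1 by −0.58. In these ratios, as in that of Hadha to Hadhb, the groups did not overlap, and each had the smallest possible exact p of 0.1, or 0.125 adjusted. Cpt1a against Cpt2 overlapped, at −0.86, −0.97 and −0.76 with chlorothalonil and −0.31, −1.03 and −0.27 with corn oil, with an exact p of 0.4. With 3 arrays against 3, none of these ratios could pass 0.05. Their direction was the same in all 11 alternatives run for each. Some of these could not change it: median scaling and the deposited values apply 1 constant per array, which leaves a ratio within an array as it was. Averaging the probes likewise cannot change a ratio of genes with 1 probe each. Without chlorothalonil replicate 3 the exact permutation p of Eci1 against Decr1 was 0.2.

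**Figure D3:**
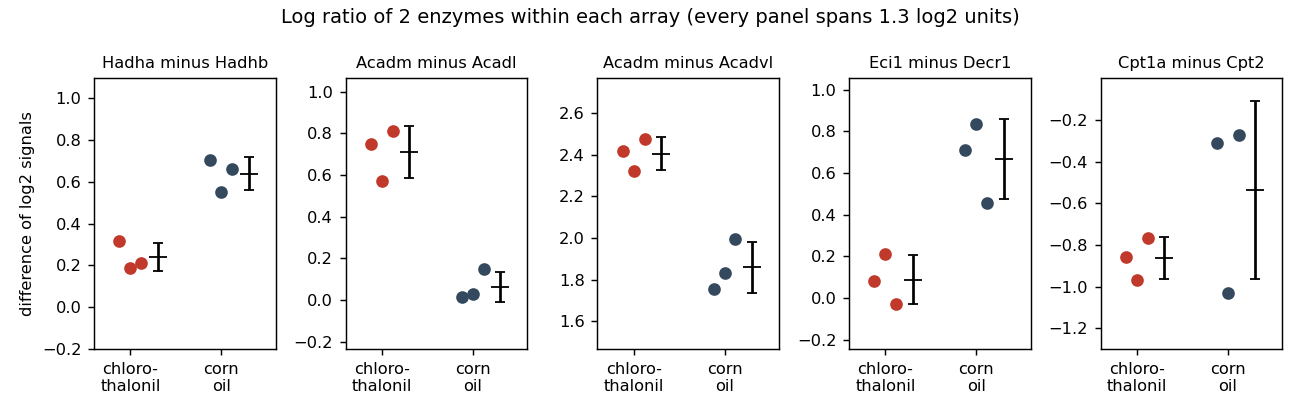
Difference of the log2 signals of 2 enzymes on the same array, 1 point per array, chlorothalonil (red) left of corn oil (blue), with the mean and SD of 3 arrays. The groups are apart in the first 4 panels and overlap for Cpt1a minus Cpt2.

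Around these enzymes, 8 lists of genes of fatty acid handling held 96 measured genes, of which 4 passed, 2 higher and 2 lower. That was 4.17% of them, beside 2.14% of features with a gene symbol and 3.15% of all features. In the list of 13 carnitine and fatty acid uptake genes, Dbi fell and 12 did not pass. Dbi, the acyl-CoA binding protein, had 6.69, 6.62 and 6.65 with chlorothalonil and 7.03, 7.10 and 7.06 with corn oil, a fall of 0.41 ± 0.06 (SE) with a limma adjusted p of 0.0308. Its second probe was at −0.40. Scaling to the array median ended this call, at −0.36 and an adjusted p of 0.0538, as did spike-in scaling, at −0.26 and 0.166. No filter on dim probes left the fold change at −0.41, with an adjusted p of 0.111. With any array left out the call was lost too, with fold changes of −0.43 to −0.39. The carnitine transporter Slc22a5 was at −0.10 and the carnitine-acylcarnitine translocase Slc25a20 at 0.0015, both not past the threshold and chosen after their values were seen. The median of the 13 uptake genes was −0.09, with values from −0.43 to 0.22. Of these genes 9 were below 0 and 4 above, where 44.3% of features with a gene symbol were below. Without overlap 5 were lower and 2 higher, beside 11.4% and 16.3% of features with a symbol. An unadjusted p under 0.05 in limma was reached by 4 of the 13, beside 18.5%.

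The 15 measured members of the list of other mitochondrial beta-oxidation enzymes gave 0 calls in limma, although 10 had an unadjusted p under 0.05, beside 18.5% of features with a gene symbol. Their values went both ways, with 7 genes higher and 3 lower without overlap of the groups, beside 16.3% higher and 11.4% lower among features with a gene symbol. Acot2, a mitochondrial acyl-CoA thioesterase, had the smallest p of the list, at −0.45 ± 0.09 (SE) with an adjusted p of 0.0633. Echs1, the short-chain enoyl-CoA hydratase, was at 0.37 and Acads, the short-chain acyl-CoA dehydrogenase, at 0.26, both on the side of Acadm. Hadh, the short-chain hydroxyacyl-CoA dehydrogenase, was at −0.28. These 3 were chosen after their values were seen, and none passed. The list is broader than its name, since it also holds Pcca, Pccb and Mcee and the thioesterases Acot2, Acot9 and Acot13. Its median of 0.12, beside −0.19 for the 10 enzymes above, is thus not that of beta-oxidation enzymes alone. Setting those genes aside, Acad9, Acad11, Acadsb, Hsd17b10 and Acat1 also lay above 0, from 0.05 for Acad9 to 0.41 for Acat1. Eci2, at −0.30, lay below 0 with Hadh.

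Of 11 measured acyl-CoA synthetases, which activate fatty acids, 0 passed in limma. An unadjusted p under 0.05 was found for 1 of them, beside 18.5% of features with a gene symbol. The 1 gene was Acsl1, the main long-chain synthetase, at −0.27 ± 0.08 (SE) with an adjusted p of 0.163. Of 4 genes that pass electrons from the dehydrogenases to ubiquinone, limma called 0, and 0 reached an unadjusted p under 0.05, beside the same 18.5%. Etfa, a subunit of the electron transfer flavoprotein, was at 0.17 ± 0.08.

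The controls of the pathway gave 0 calls in limma. Of 10 genes of malonyl-CoA and AMPK control, 2 had an unadjusted p under 0.05, with Acacb, the acetyl-CoA carboxylase whose product inhibits Cpt1, at 0.42 ± 0.09 (SE) and an adjusted p of 0.0847. Of 20 transcriptional regulators and their known targets, 4 had an unadjusted p under 0.05, with the coactivator Ppargc1b at 0.31 ± 0.07 and an adjusted p of 0.0854. Ppara, the nuclear receptor that drives these enzymes in liver, had −0.39, 0.32 and 0.40 with chlorothalonil and 0.70, −0.55 and −0.30 with corn oil. The Ppara groups overlapped widely, and its 95% interval from −0.78 to 1.09 does not decide its direction. Pdk4, a pyruvate dehydrogenase kinase, was at −0.92 ± 0.39 with overlapping groups. Ppara and Pdk4 were chosen after their values were seen.

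Peroxisomes hold a second beta-oxidation route. Of 16 measured peroxisomal genes, 2 rose, 0 fell and 14 did not pass, beside 1.44% called higher and 0.696% lower among features with a gene symbol. An unadjusted p under 0.05 in limma was reached by 7 of the 16, beside 18.5%. Without overlap 7 were higher and 0 lower, beside 16.3% and 11.4%. The list had 11 genes above 0 and 5 below, with a median of 0.13. The thiolases Acaa1a and Acaa1b rose by 1.28 ± 0.14 (SE) and 1.53 ± 0.13, with limma adjusted p of 0.0146 and 0.0099. They are near-identical genes whose signals cannot be fully told apart, and 1 probe of Acaa1a was at −0.02. With an array left out the adjusted p ran from 0.0374 to 0.0712 for Acaa1a and from 0.0333 to 0.0544 for Acaa1b. Their mitochondrial counterpart Acaa2 was at −0.07. The difference between the 2 routes was not tested.

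**Figure D4:**
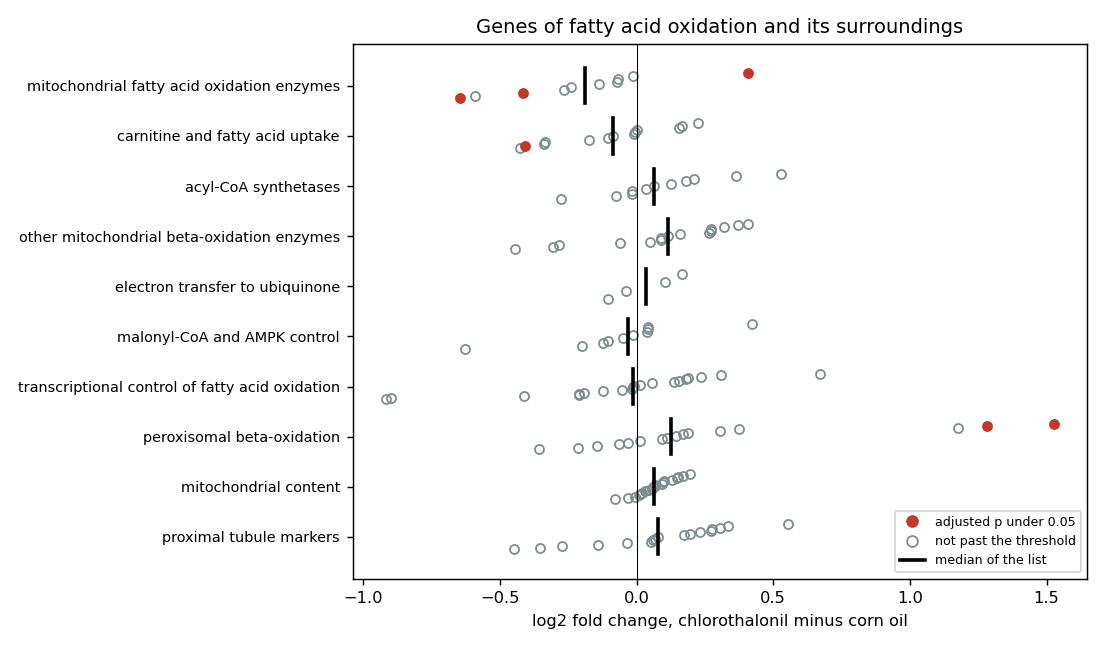
Log2 fold change, chlorothalonil minus corn oil, of each measured gene in 10 lists, filled where the adjusted p is under 0.05, with the median of each list as a black bar. The 10 enzymes have the lowest median of these lists, at −0.19, and Acaa1b lies furthest to the right, at 1.53.

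Genes of general mitochondrial content were mostly slightly above 0. Among 20 such genes limma called 0, and an unadjusted p under 0.05 occurred for 1, beside 18.5% of features with a gene symbol. Values were positive for 17 of the 20 and negative for 3, where 44.3% of features with a symbol were negative. Without overlap 8 were higher and 0 lower, beside 16.3% and 11.4%. The 20 genes had a median of 0.06, beside 0.02 for features with a symbol. Vdac1, the outer membrane channel, was at 0.19 ± 0.06 (SE). Fewer cells of a type and less RNA per cell cannot be told apart in this tissue RNA. Among 17 proximal tubule markers limma called 0, while 8 reached an unadjusted p under 0.05, beside 18.5% of features with a gene symbol. These markers went both ways, with 12 above 0 and 5 below, where 44.3% of features with a symbol were below. Without overlap 5 were higher and 3 lower, beside 16.3% and 11.4% of features with a symbol. The markers ran from −0.45 to 0.55, with a median of 0.08. Their summed level, in multiples of the 75th percentile, was 3888 to 4232 with chlorothalonil and 3498 to 3781 with corn oil. Slc13a3, a dicarboxylate transporter of the proximal tubule, had the smallest p, at 0.34 (adjusted p 0.0508).

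The other marker lists also gave 0 calls in limma. Their medians were 0.04 for 6 podocyte and 10 loop, distal and collecting duct markers, 0.07 for 6 endothelial, −0.06 for 6 macrophage and lymphocyte and 0.26 for 5 fibroblast markers. An unadjusted p under 0.05 was reached by 0, 3, 0, 1 and 0 of these in the same order, beside 18.5% of features with a gene symbol. Of 5 red blood cell transcripts all lay above corn oil without overlap, beside 16.3% of features with a gene symbol, with a median of 0.27 and summed levels of 557 to 604 with chlorothalonil and 476 to 498 with corn oil. Of fat tissue markers 5 of 8 were measured, with a median of 0.54 and summed levels of 1.91 to 2.61 with chlorothalonil and 1.82 to 2.08 with corn oil. The red cell list had 4 genes and the fat list 2 genes with an unadjusted p under 0.05. Within the lists, the smallest p belonged to Podxl at 0.22, Calb1 at −0.56, Cdh5 at 0.17, Adgre1 at −0.47, Col3a1 at 0.44, Slc25a37 at 0.45 and Cidea at 0.58. Single genes do not stand for their lists. The loop, distal and collecting duct markers ran from −0.56 to 0.73, with 6 above 0 and 4 below. Fat tissue markers ran from −0.60 to 0.86, with 4 above 0 and 1 below. The part of these cells in the values of the 10 enzymes was not tested.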

How the data were processed

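RNA of 6 rat renal cortex samples was measured on Agilent 1-colour arrays. Per the file headers, the deposited intensity is the processed signal of Agilent Feature Extraction, background-subtracted and spatially detrended within each array, with no scaling between arrays. The submitters' processing notes give its version as 10.7. The value table that the authors deposited is a ratio of the processed signal to 1 constant per array, as a division of signal by table value showed. It is linear and not centred, its column medians were 0.105, 0.105 and 0.106 for chlorothalonil and 0.107, 0.109 and 0.112 for corn oil, and how the constant was chosen is not stated.

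The log2 signal was taken minus each array's 75th percentile. Probes well above background on all arrays of a group were kept, and outlier spots were left out, which gave 39862 probes. They were named by accession through a RefSeq table of GRCr8, which matched 28206 of 61537 probes to 1 gene. The array headers name an older build, so array coordinates were not used. The brightest probe stood for a gene, and probes without a symbol were kept one by one, for 31098 features. Merging such probes by their identifier instead, an alternative added later, gave 909 calls of 29115. The R package limma (version 3.58.1, R 4.3.3) tested the group difference with no covariate. On data simulated for this comparison over 31098 features, 64% of changes of 1 log2 unit and 90% of 2 were called. Smaller changes were not simulated.

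The enzymes, lists and tests were chosen with earlier results of these data known. The text names all 10 enzymes with every probe, and of each list the called genes or the one with the smallest p, except 1 list and its gene, which are not reported here. The samples are described as biological replicates. They came as 3 a group, and p-values measure the spread between these samples. A block for slide could not be fitted, since each group has its own slide.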

Additional observations from a re-analysis of the deposited data

How the results depend on the processing

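The 980 called features were 400 higher and 580 lower. They became 859 with scaling to the array median, 456 higher and 403 lower, and 789 with spike-in scaling, 569 higher and 220 lower. They were 159 with no filter on dim probes, and 120 to 396 with an array left out. Of the 10 enzymes 3 passed. It was 1 with median scaling, 1 with spike-in scaling, 0 with no filter on dim probes, and 0 to 1 with an array left out. Of the 14 probes 4 passed, and 0 with no filter. With no filter 5 of the 10 enzymes had an unadjusted p under 0.05 in limma, as did 6502 of 48975 features. Of the genes in the other lists 4 passed. It was 8 with normexp, 11 with trend and robust fitting of the variance prior, 1 with no filter, and 0 to 2 with an array left out. The 4 ratios whose groups did not overlap were 4 to 5 with an array left out.

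With the replicate number as a block, 0 features passed in limma, where 5570 had an unadjusted p under 0.05, and so did 0 of the 10 enzymes, 6 at that level, and 0 of the other genes. Same-numbered arrays correlated at 0.094, 0.021 and 0.049 across features in their deviations from the group means. Arrays of different number ran from −0.079 to 0.043, all below 0 except corn oil replicate 2 with chlorothalonil replicate 3. The same-numbered value was the highest for each chlorothalonil array, though all were small. These correlations do not decide whether the numbers mark pairs, and the reported fit did not take them as pairs.

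The sign of Hadhb turned to 0.040 with median scaling, 0.013 with normexp and 0.14 with spike-in scaling. With an array left out it ran from −0.046 to 0.023, above 0 at 0.023 (corn oil replicate 2 left out) and 0.0078 (chlorothalonil replicate 3 left out). With spike-in scaling Acadvl was at 0.011, Decr1 at 0.083 and Acaa2 at 0.079. Of the values of the 10 enzymes under 18 alternatives, 142 kept direction and side of the threshold, 29 lost a call, 1 gained one and 8 turned. Most of the 142 belong to the 7 enzymes that were not called. Acadm kept its call in 9 of the 18 alternatives, and Hadha and Eci1 kept theirs in 8 each. Causes were not tested.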

Other observations

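Head-to-head genes with overlapping start windows, as Hadha and Hadhb are, numbered 323 pairs in which both genes were measured. The fold changes of the 2 genes differed by a median of 0.15 on the log2 scale over these pairs, and by 0.40 for Hadha and Hadhb, and 38 pairs, 11.8%, lay at least as far apart. In 6 pairs 1 gene passed in limma, and in 0 pairs both did, where 2.14% of features with a gene symbol were called. With calls so rare, these counts do not show whether such neighbours change together or apart. These pairs were listed after the values of Hadha and Hadhb had been seen, and the figures are descriptions, with no test.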
